A study of Homo sapiens with 9 samples.

Results

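The genes described here are 8 targets and feedback regulators of the ERK kinase pathway in MCF10A, a line of non-transformed mammary epithelium of human origin: SPRY1, SPRY2, SPRY4, SPRED1, SPRED2, ETV4, ETV5 and PHLDA1. They were chosen by name, as the rows of a conversion-rate table whose RefSeq identifier belongs to one of these symbols, and all 8 were found among 25797 genes. The table comes from SLAM-Seq, in which cells take up 4-thiouridine (4sU) and build it into RNA made during the pulse. Iodoacetamide then alkylates the 4sU, so that a T of the transcript is read as C. The T>C conversion rate of a gene, the share of its T positions read as C, therefore rises with the share of its mRNA made during the pulse. The libraries were prepared from mRNA 3′ ends, and the same table gives the reads of each 3′ interval scaled to library size, in the unit CPM.

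All cells of these libraries were MCF10A JUN KO (knockout) cells into which JUN-AID and TIR1 vectors had been brought by infection, so that the auxin indole-3-acetic acid (IAA) induces degradation of the JUN fusion. There were 3 groups labelled with 3 replicates each: no 4sU, DMSO with 100 µM 4sU for 1 h, and 100 µM IAA for 1 h followed by 100 µM 4sU for 1 h. All were grown with 20 ng/ml EGF, with insulin, hydrocortisone, cholera toxin and horse serum, so the ERK pathway was supplied with ligand in each group. The 3 IAA columns held the same values in all 56868 rows of the table and were counted as 1 library, which leaves 7 libraries of 18997637 to 24014195 reads. JUN itself is removed as a protein, which these RNA libraries do not measure. The labels do not say whether replicates were separate cultures, while the study calls its replicates biological. The p-values measure the spread between these libraries. The labels also do not say whether the cells without 4sU received DMSO, so in every comparison with them 4sU and the solvent cannot be told apart. All 8 mammary epithelial markers had reads in every library, from KRT14 at 3.63 to 10.6 CPM and TP63 at 30.5 to 39.4 CPM to KRT5 at 519 to 709 CPM. Of 7 markers of other cell types, PTPRC, CD3E and DES were listed at 0 in every library, ALB, ESR1 and PECAM1 were at most at 1.08 CPM, and CD68 was at 1.68 to 7.93 CPM. In bulk RNA, fewer cells with an mRNA and less of it per cell cannot be told apart.

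The ERK pathway runs from growth factor receptors such as EGFR through RAS, RAF and MEK to the ERK kinases, which switch on a set of genes that includes the pathway's own brakes. Sprouty proteins (SPRY1, SPRY2, SPRY4) and the related SPRED proteins (SPRED1, SPRED2) restrain signalling between receptor and RAF, and SPRED1 acts by bringing the RAS inactivator neurofibromin (NF1) to the membrane. ETV4 and ETV5 are ETS transcription factors of the PEA3 group that act as outputs of the pathway, and PHLDA1 is a pleckstrin homology-like protein induced by growth factors. mRNAs of this kind are often short-lived, and AU-rich elements in the 3′ UTR, built on the letters ATTTA, mark many short-lived mRNAs.

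The 8 genes lie on 8 chromosomes, and the reads came from their 3′ UTRs, whose sequence and position were taken from GENCODE on GRCh37, stop codon included. The first AU-rich heptamer TATTTAT of each 3′ UTR is shown because the genes differed in conversion rate and also in how many of these elements they hold. Each window is read 5′ to 3′ on the strand of the gene with the heptamer, which itself holds an ATTTA, in capitals. ETV4 has no window, since neither motif occurs in its 3′ UTR.
SPRY1, chr4:124324496-124324518, plus strand: caagttgaTATTTATagctgatc
SPRY2, chr13:80910260-80910282, minus strand: gtaaagaaTATTTATttgaagtt
SPRY4, chr5:141691965-141691987, minus strand: accataggTATTTATtgattgga
SPRED1, chr15:38644164-38644186, plus strand: tttttgtaTATTTATgcattagg
SPRED2, chr2:65538592-65538614, minus strand: agtgccccTATTTATttcaataa
ETV5, chr3:185764594-185764616, minus strand: ctaaaccaTATTTATagctttct
PHLDA1, chr12:76423665-76423687, minus strand: aagactttTATTTATgaaccttt

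The Sprouty genes had the densest heptamers. SPRY2, at chr13:80910111-80915261 on the minus strand, has a 3′ UTR of 785 bases with 2 heptamers, and 4.52% of the 2013 human 3′ UTRs within 20% of its length held as many. SPRY1, at chr4:124317950-124324915 on the plus strand, holds 3 heptamers in 1207 bases, a number reached by 2.47% of 2266 3′ UTRs of similar length. SPRY4, at chr5:141689992-141706020 on the minus strand, holds 4 in 3782 bases, a number reached by 6.65% of 1880. Per kb this is 2.55, 2.49 and 1.06 heptamers for SPRY2, SPRY1 and SPRY4. Their numbers of ATTTA pentamers were common, reached by 40.3%, 29.7% and 52.8% of the same similar 3′ UTRs, in that order. The SPRED genes were unlike each other. SPRED1, at chr15:38545037-38649450 on the plus strand, has 5 heptamers and 24 ATTTA pentamers in a 3′ UTR of 5588 bases, the longest of the 8, and 5.73% of 1065 similar 3′ UTRs held as many heptamers. SPRED2, at chr2:65537985-65659771 on the minus strand, has 1 heptamer in 2653 bases, a number reached by 51.3% of 2330. PHLDA1, at chr12:76419227-76425556 on the minus strand, has 3 heptamers in 4675 bases, a number reached by 19.7% of 1474. ETV5, at chr3:185764103-185828107 on the minus strand, has 1 heptamer in 2328 bases, a number reached by 45.8% of 2425. ETV4, at chr17:41605212-41656988 on the minus strand, has neither heptamer nor pentamer in 676 bases. Of the 1945 3′ UTRs of similar length, 62.0% hold at least 1 pentamer but only 19.3% at least 1 heptamer. Lacking the heptamer is thus common at that length. A match of letters is a description and not a shown regulatory site.

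RefSeq promoter windows, from 250 bases before to 50 bases after an annotated start on GRCh38.p14, were at hand for 6 of the 8 genes, with 10 windows in all. They were searched on both strands for CCGGAA (the core bound by ETS factors such as ETV4 and ETV5), TGACTCA (the AP-1 site bound by JUN with FOS proteins), TGACGTCA (the CRE), CATTCC (the TEAD core) and the CArG box of serum response factor, none of which overlapped another here. CCGGAA occurred in 1 window each of SPRY1, SPRY2 and PHLDA1, and 17.2% of all 35116 human windows hold it. TGACTCA occurred in 1 window of SPRED2 and not in its other window, at chr2:65432550-65432849. The window with TGACTCA is shown because the study removed JUN, and 4.95% of all windows hold this motif. CATTCC occurred in the window of SPRY4, as in 14.0% of all windows, while TGACGTCA and the CArG box, in 1.85% and 1.29% of all windows, were in none of the 10. The SPRY2 window is shown because SPRY2 had the highest mean conversion rate of the 8 genes. It also had the one mRNA level that passed the main test, which does not pair libraries by replicate number. In both the motif is in capitals. Its first letter lies 142 bases before the start in SPRY2 and 6 bases before it in SPRED2, where the motif reaches the start itself.
SPRY2, chr13:80341077-80341376, minus strand: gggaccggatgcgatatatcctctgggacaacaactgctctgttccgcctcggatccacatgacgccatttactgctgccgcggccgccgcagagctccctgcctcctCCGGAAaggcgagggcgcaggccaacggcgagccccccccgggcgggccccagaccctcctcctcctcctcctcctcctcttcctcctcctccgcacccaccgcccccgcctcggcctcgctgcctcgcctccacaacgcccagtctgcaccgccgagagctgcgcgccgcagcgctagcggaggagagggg
SPRED2, chr2:65366729-65367028, minus strand: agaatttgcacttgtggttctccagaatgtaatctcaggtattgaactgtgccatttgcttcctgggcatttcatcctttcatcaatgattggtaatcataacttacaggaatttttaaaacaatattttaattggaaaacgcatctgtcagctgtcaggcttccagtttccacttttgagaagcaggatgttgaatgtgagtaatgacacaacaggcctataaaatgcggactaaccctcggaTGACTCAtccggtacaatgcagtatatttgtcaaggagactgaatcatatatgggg

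The first comparison asked how the levels of these mRNAs in the labelled cells compared with those in unlabelled cells, with the Sprouty genes first. SPRY2 was at 6.77, 4.07 and 4.95 CPM in the 3 libraries without 4sU, at 1.46, 2.12 and 1.99 CPM in the 3 with DMSO and 4sU, and at 2.79 CPM in the IAA library. All 4 libraries with 4sU lay below all 3 without it. These levels rest on few reads, 91 to 137 without 4sU and 31 to 56 with it. On the log2(CPM + 1) scale SPRY2 fell by 1.14 with DMSO and 4sU (SE 0.21, 95% CI -1.61 to -0.66), and it was lower in 3 of 3 libraries against the one with the same number. This passed limma's test over all genes at an adjusted p of 0.029. The replicate numbers pair the libraries in level, and a fit blocked on them gave the same difference with an adjusted p of 0.055, so the call was lost. It was kept without replicate 1 of the no 4sU group (adjusted p = 0.041) and lost without any one of the other 5 libraries, at adjusted p from 0.060 to 0.128. On the reads, without that pseudocount, edgeR's quasi-likelihood test gave a log2 difference of -1.52 with an adjusted p of 0.032, and DESeq2 gave -1.53 with 0.00019.

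SPRY4 was at 13.1, 8.53 and 10.7 CPM without 4sU, at 9.16, 4.54 and 5.68 CPM with DMSO and 4sU, and at 7.78 CPM with IAA. The ranges of both groups overlapped and replicate 1 was the highest of its group in each, but each DMSO library lay below the one of its number. The log2 difference of the levels was -0.72 (SE 0.25), with an adjusted p of 0.30 from limma and 0.099 with the block. SPRY1 was close to the limit of detection, with 48, 25 and 8 reads without 4sU, 7, 4 and 4 reads with DMSO and 4sU, and 10 reads with IAA. Only 2 of the 6 libraries reached the minimum of 10 reads, so SPRY1 was not tested. Its levels were 2.37, 1.12 and 0.421 CPM without 4sU and 0.329, 0.167 and 0.199 CPM with DMSO and 4sU. When no filter was set, the log2 difference was -0.83 with an adjusted p of 0.30 from limma.

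SPRED1 was at 44.4, 67.0 and 69.2 CPM without 4sU, at 61.5, 61.6 and 63.4 CPM with DMSO and 4sU, and at 71.4 CPM with IAA. The DMSO libraries lay within the range of those without 4sU, and the log2 difference of 0.04 (95% CI -0.42 to 0.51) had an adjusted p of 0.96. SPRED2 was at 13.6, 16.2 and 17.0 CPM without 4sU, at 8.97, 14.1 and 12.1 CPM with DMSO and 4sU, and at 13.5 CPM with IAA. It was lower in 3 of 3 libraries against the same number, although the ranges overlapped, and the log2 difference of -0.43 (95% CI -0.89 to 0.04) did not pass the test (adjusted p = 0.52).

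The mRNAs of the ETS factors were not lower with 4sU. ETV4 was at 8.06, 4.11 and 3.26 CPM without 4sU, at 11.2, 4.29 and 6.27 CPM with DMSO and 4sU, and at 9.32 CPM with IAA. Replicate 1 was again the highest of both groups, and the spread within groups was as wide as the difference between them. The log2 difference was 0.39 (95% CI -0.36 to 1.15), with an adjusted p of 0.74. ETV5 varied least of the 7 genes tested, at 15.6, 15.6 and 18.4 CPM without 4sU, 19.1, 15.8 and 16.6 CPM with DMSO and 4sU and 16.9 CPM with IAA. Its log2 difference was 0.02 (95% CI -0.36 to 0.40), so a change of more than 0.40 log2 units in either direction lies outside the interval.

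PHLDA1, the best covered of the 8 genes with 2387 to 4584 reads per library in its main 3′ interval, was at 164, 205 and 196 CPM there without 4sU. It was at 112, 150 and 134 CPM with DMSO and 4sU and at 133 CPM with IAA. All 4 libraries with 4sU lay below all 3 without it. The log2 difference of -0.54 (SE 0.18, 95% CI -0.95 to -0.14) had an adjusted p of 0.27, and 0.078 with the block, so it did not pass the test in either fit.

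**Figure D1:**
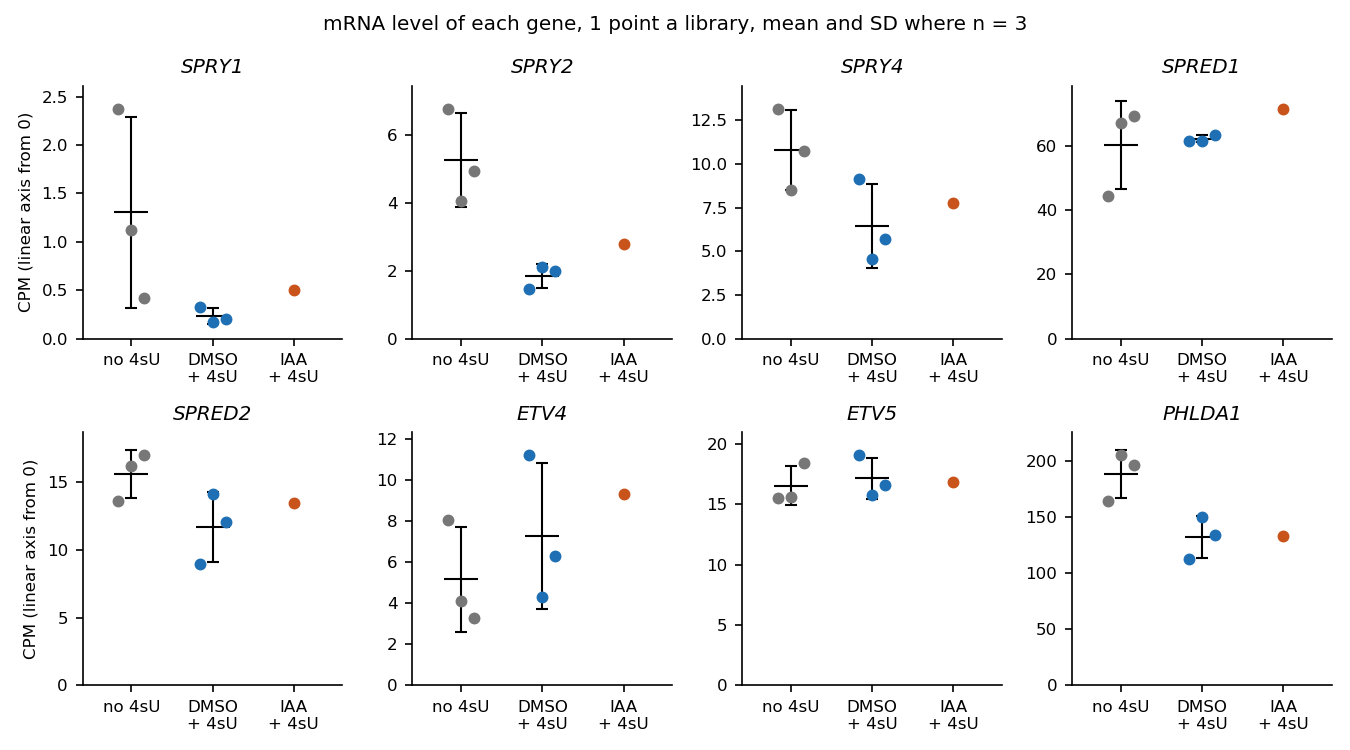
Level of each of the 8 mRNAs in CPM (y axis, linear) by group (x axis: no 4sU, DMSO + 4sU, IAA + 4sU), with 1 point a library and the mean with SD where n = 3. The SPRY2 and PHLDA1 libraries with 4sU all sit below those without it, SPRY2 at 1.46 to 2.79 against 4.07 to 6.77 CPM, whereas the ETV5 and SPRED1 groups overlap.

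In all, 1 of the 7 members tested was called lower and 0 higher, where 1.57% of the 12017 genes tested were lower and 0 were higher. At an unadjusted p under 0.05 from limma, 363 genes were higher and 908 lower. After adjustment, DESeq2 called 6 higher and edgeR 0. The median log2 difference was -0.43 over the 7 members and 0.04 over all genes tested. The DMSO libraries lay below all libraries without 4sU in 2 of the 7 members, SPRY2 and PHLDA1, and in 10.8% of all genes tested. With the block, 0 of the 7 members were called, while 195 of the 12017 genes were called lower.

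The log2 differences of DMSO with 4sU from no 4sU ran from 1.08 to 6.35 in T>C conversion rate over the 8 members. In level they ran from -1.14 to 0.39 over the 7 tested, on a scale with another pseudocount. Without 4sU, the rates of the 8 genes were between 0 and 0.164%, the background of T>C changes in unlabelled RNA. With 4sU, the Sprouty mRNAs were converted most. SPRY2 had rates of 6.17, 8.57 and 4.78% with DMSO and 4sU and 7.41% with IAA, against 0.0402, 0.0554 and 0% without 4sU. No labelled library came near the background. On the log2(rate + 0.0005) scale, with the rate as a fraction, the difference of DMSO with 4sU from no 4sU was 6.35 (SE 0.46), with an adjusted p of 0.00063 from limma. The mean of 6.50% ± 1.92 (SD, n = 3) was higher than that of 99.2% of the 10547 genes tested. SPRY4 had rates of 3.77, 5.45 and 3.04% with DMSO and 4sU and 3.58% with IAA, against 0.111, 0.124 and 0.164% without 4sU. The log2 difference was 4.47 (SE 0.40, adjusted p = 0.0011), and its mean rate exceeded that of 98.2% of genes. SPRY1 had rates of 8.77, 0 and 8.82% with DMSO and 4sU and 12.6% with IAA, on the 4 to 10 reads given above. The library at 0% held 4 reads, and the log2 difference of 4.37 had a 95% CI from -0.68 to 9.42 and did not pass the test (adjusted p = 0.12). Without that library the adjusted p was 0.0076.

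PHLDA1 and SPRED2 followed the Sprouty genes. PHLDA1 had rates of 1.35, 1.29 and 1.19% with DMSO and 4sU and 1.04% with IAA, against 0.0342, 0.0516 and 0.0676% without 4sU. Its mean of 1.28% ± 0.08 (SD, n = 3) varied least in proportion, and the log2 difference was 3.73 (SE 0.31, adjusted p = 0.00097). SPRED2 had rates of 0.988, 1.13 and 0.663% with DMSO and 4sU and 1.13% with IAA, against 0.0141, 0.0407 and 0.0468% without 4sU, a log2 difference of 3.54 (SE 0.36, adjusted p = 0.0014). Their mean rates exceeded those of 92.1% and 88.6% of genes. SPRED1, the other SPRED gene, was lower than SPRED2 in every labelled library. Its rates were 0.268, 0.453 and 0.431% with DMSO and 4sU and 0.460% with IAA, against 0.0544, 0.0778 and 0.0591% without 4sU. The log2 difference of 1.91 (SE 0.31) passed the test at an adjusted p of 0.0048, and the mean rate exceeded that of 68.6% of genes.

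ETV5 and ETV4 were converted least. ETV5 had rates of 0.372, 0.127 and 0.596% with DMSO and 4sU and 0.365% with IAA, against 0.0975, 0.0965 and 0.0549% without 4sU. All 4 labelled libraries lay above the others, and the log2 difference of 1.47 (SE 0.52) had an adjusted p of 0.055. With only genes of at least 200 reads on average tested, the adjusted p was 0.029 for the same difference. ETV4 had rates of 0.180, 0.0724 and 0.0592% with DMSO and 4sU, against 0.0815, 0 and 0% without 4sU, and was listed at 0% in the IAA library with 187 reads. The groups overlapped, and the log2 difference of 1.08 (95% CI -0.22 to 2.37) had an adjusted p of 0.13, or 0.048 without replicate 1 of the no 4sU group. Its mean rate exceeded that of 9.95% of genes, against 99.2% for SPRY2. The number of T positions read is not given in the table, so no counting interval can be set on these rates.

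**Figure D2:**
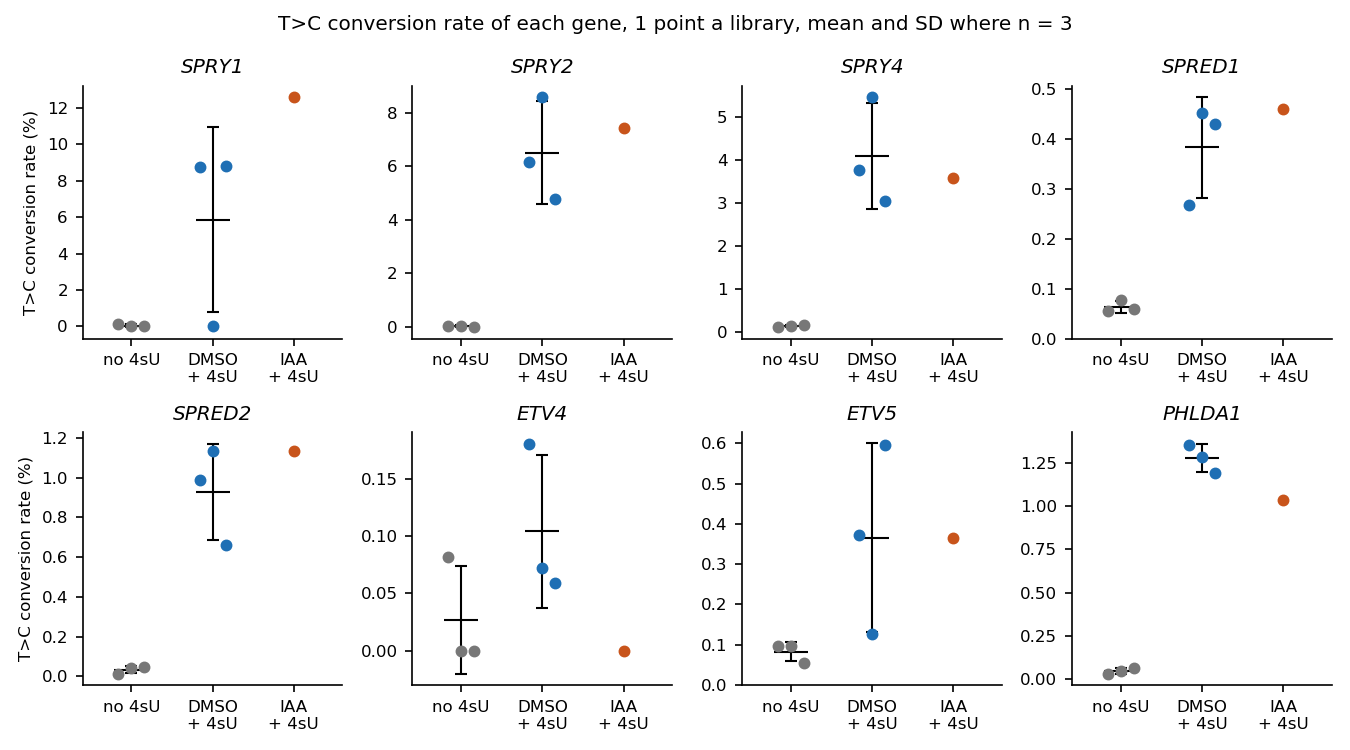
T>C conversion rate in percent (y axis, linear, with a scale of its own for each gene) of the 8 genes by group (x axis: no 4sU, DMSO + 4sU, IAA + 4sU), with 1 point a library and the mean with SD where n = 3. SPRY2 reaches 4.78 to 8.57% in the labelled libraries while ETV4 stays between 0 and 0.180%, and 1 of the 3 SPRY1 libraries with DMSO and 4sU is at 0.

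By mean rate with DMSO and 4sU the order was SPRY2, SPRY1, SPRY4, PHLDA1, SPRED2, SPRED1, ETV5 and ETV4. SPRY2 and SPRY1 overlapped, as did SPRY1 and SPRY4. SPRY4 lay above PHLDA1 in all libraries (lowest 3.04% against highest 1.35%), PHLDA1 above SPRED2 (1.19% against 1.13%) and SPRED2 above SPRED1 (0.663% against 0.453%). SPRED1 and ETV5 overlapped, as did ETV5 and ETV4. The order resembled that of the heptamers per kb of 3′ UTR at both ends, with SPRY2, SPRY1 and SPRY4 at the top of both and ETV4 at the bottom of both, but SPRED1 had more heptamers per kb (0.895) than PHLDA1 (0.642) or SPRED2 (0.377) and a lower rate than both, and ETV5 had more (0.430) than SPRED2 and a lower rate. The resemblance depends on the motif. By ATTTA pentamers per kb the order was SPRED1 (4.3), SPRY1 (3.3), PHLDA1 (3.0), SPRY2 (2.5), SPRY4 (2.1), SPRED2 (1.9), ETV5 (1.7) and ETV4 (0). The 8 genes share their libraries, and no test was made.

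**Figure D3:**
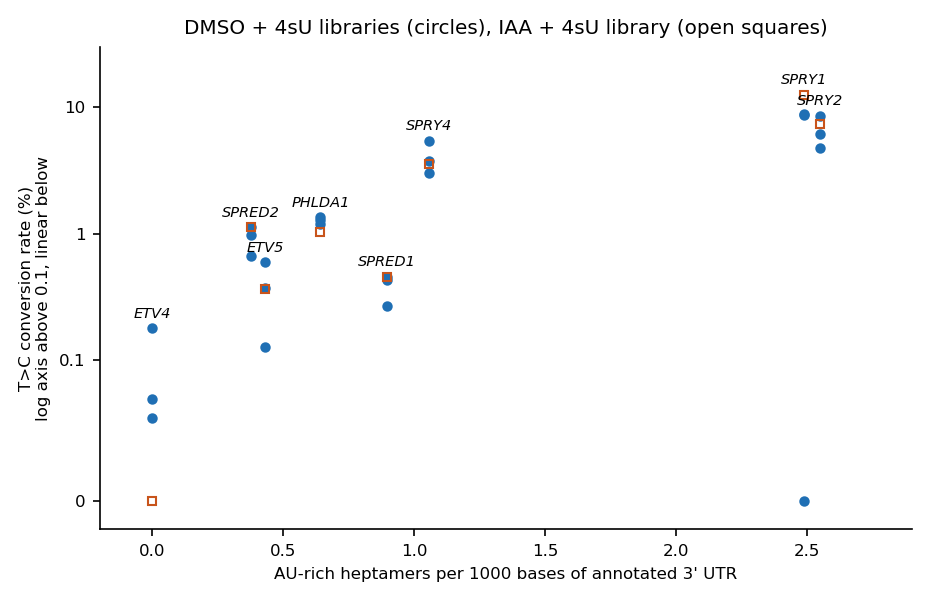
T>C conversion rate in percent (y axis, log above 0.1 and linear below) against AU-rich heptamers per kb of annotated 3′ UTR (x axis) for the 8 genes, with circles for the 3 libraries with DMSO and 4sU and an open square for the IAA library. SPRY1 and SPRY2 are at the upper right at 2.49 and 2.55 heptamers, ETV4 is at the lower left at 0, and SPRED1 at 0.895 lies below PHLDA1 and SPRED2.

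The rate was called higher with DMSO and 4sU in 5 of the 8 members, SPRY2, SPRY4, PHLDA1, SPRED2 and SPRED1, where 51.3% of all 10547 genes tested were. With the block the same 5 were called. Where a gene had to average at least 200 reads, 4 of 4 members (SPRED1, SPRED2, ETV5 and PHLDA1) and 64.8% of the 7168 genes tested were called. SPRY1, SPRY2, SPRY4 and ETV4 had too few reads for this filter, so it does not check their rates. The DMSO libraries lay above all libraries without 4sU in 6 of 8 members and in 63.7% of the 10547 genes tested. The main filter, a rate above 0 in enough libraries, counts both groups together, so a gene can enter mainly through its labelled libraries. These shares therefore hold for genes that passed it and not for all genes. With no filter on low values, 5 of the 8 members and 4674 of 12749 genes were called higher. With the main filter, the median log2 difference was 3.63 over the 8 members and 1.27 over all genes tested, with ETV4 (1.08) below the latter and ETV5 (1.47) close to it.

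Other outputs of the pathway, 11 genes listed by name, gave the setting for these values. In mRNA level, 5 of the 10 tested were called lower with DMSO and 4sU and 0 higher, with a median log2 difference of -1.01. They were MYC, a growth-promoting transcription factor (-2.92, adjusted p = 0.0013), the ERK phosphatases DUSP6 (-2.24, adjusted p = 0.00049) and DUSP4 (-0.99, adjusted p = 0.018), the immediate early gene IER3 (-1.02, adjusted p = 0.031) and the AP-1 subunit FOS (-1.42, adjusted p = 0.013), all as log2 differences of limma. FOS is one of the 11 listed genes, but it is named because it passed the test. The early growth response factor EGR1 was at -1.10 (adjusted p = 0.0501) and passed with the block (adjusted p = 0.015). Not called were DUSP5 at -0.67, the AP-1 subunit FOSL1 at -0.67, the receptor EPHA2 at -0.50 and the cyclin CCND1 at 0.14. The count depended on single libraries, with 2 of the 10 called without no 4sU replicate 2 or 3 or without DMSO replicate 2 or 3, 4 without DMSO replicate 1 and 5 without no 4sU replicate 1. On the reads, where no pseudocount compresses low values, edgeR put SPRY2 at -1.52, beside -1.01 for DUSP4, -1.05 for IER3, -2.30 for DUSP6 and -3.08 for MYC. No test was made between genes. In the rate, all 10 tested were called higher, with a median log2 difference of 4.89, beside 3.63 over the members, and a range from 1.88 (CCND1) to 6.18 (EGR1). MYC was at 5.80 and DUSP6 at 4.83, between the 6.35 of SPRY2 and the 4.47 of SPRY4. All these sizes depend on the pseudocount of 0.0005. With DMSO and 4sU, EGR1 averaged 7.88% ± 1.19 and DUSP6 2.99% ± 0.41 (SD, n = 3), beside 6.50% for SPRY2.

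**Figure D4:**
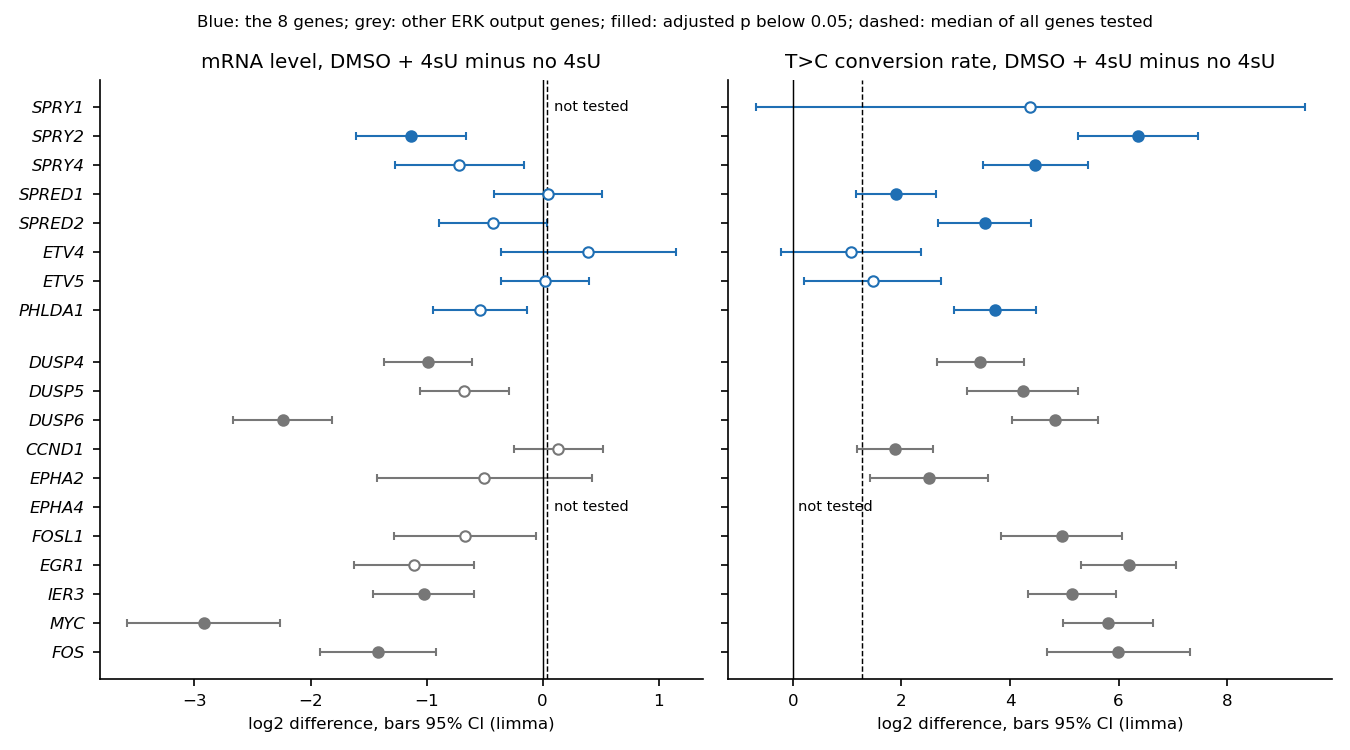
Log2 difference of DMSO with 4sU from no 4sU in mRNA level (left) and T>C conversion rate (right), with the 95% CI of limma as bars (x axes), for the 8 genes in blue and 11 other ERK output genes in grey (y axis). Filled points passed an adjusted p of 0.05, and dashed lines mark the median of all genes tested, 0.04 in level and 1.27 in rate. SPRY2 is the one filled blue point on the left, and 5 blue points are filled on the right.

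Of 25 genes of the cascade itself, from receptors to kinases and adaptors, 24 were tested in level and 0 were called by limma in either direction, with a median log2 difference of 0.04, beside 0.04 over all genes. At an unadjusted p under 0.05, 2 were higher, the receptor ERBB2 (0.73, adjusted p = 0.13) and the kinase MAP2K2 (0.46, adjusted p = 0.45), both named after their values were seen, and 0 were lower. The receptor EGFR was at -0.10, the kinase MAPK3 at 0.24, NF1 at 0.05 and CIC, a repressor of ETV4 and ETV5 that ERK inactivates, at 0.04. In the rate, 11 of 23 were called higher, beside 51.3% of all genes tested, with a median of 1.04. EGFR (1.68), NF1 (0.84) and CIC (2.77) were among the 11, while MAPK3 (-0.28) was not.

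The closest relatives of the members were compared gene by gene. SPRY3 had no read without 4sU and at most 0.0499 CPM in any library, and was not tested. SPRED3 was at -0.73 in level (log2, adjusted p = 0.47) and was not tested in rate, being above 0% in 1 of the 6 libraries compared (1.14% in DMSO replicate 1). Its CPM counts 2 overlapping intervals with the same reads. ETV1, the third PEA3 factor, was at -0.07 in level and 0.20 in rate, neither of which was called, and like ETV4 it was listed at 0% in the IAA library. PHLDA2 and PHLDA3 were at 0.33 and 0.32 in level, not called, and at 1.54 and 2.99 in rate, both called higher (adjusted p = 0.0077 and 0.0016). With DMSO and 4sU, the mean rate was 1.27% ± 0.04 (SD, n = 3) for PHLDA3 and 1.28% for PHLDA1.

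SPRY2 had the largest spread over the 7 libraries of the 7 members tested (SD 0.61 on the log2(CPM + 1) scale). The 3 genes with the most similar profile, by the root mean square difference of levels centred on their own means among 12016 genes, were ERAP2 (0.122), C3orf62 (0.125) and RGS16 (0.146), where the median gene was at 0.613. All 3 were, like SPRY2, above their mean in the 3 libraries without 4sU and below it in the 4 with 4sU. Since they were picked for likeness over these same 7 libraries, that pattern was nearly set by the choice.

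Removal of JUN was compared through the 1 IAA library against the 3 libraries with DMSO and 4sU, as values without a test of replicates. No group received IAA without the JUN degron, so JUN removal and other effects of IAA cannot be told apart. In mRNA level, 0 of the 7 members compared lay at least 1 log2 unit from the DMSO mean and outside the DMSO range, where 0.216% of 12029 genes did. SPRY2 (0.35 log2 units above the DMSO mean) and SPRED1 (0.11 above) were the 2 members outside the DMSO range, and 41.8% of all genes were outside it. SPRY4 at 0.21, ETV4 at 0.33, SPRED2 at 0.12, ETV5 at -0.10 and PHLDA1 at -0.07 lay within the range. By the same rule, each DMSO library set against the other 3 labelled libraries had 0, 5 or 7 members outside their range, and the 2 of the IAA library lie within that span. With the spread of the 2 other groups, and thus on the assumption that the lone library varies like theirs, limma called 0 of the 8 members and 0.00825% of 12118 genes, namely CYP1A1 alone (log2 difference 4.45, adjusted p = 0.0046). CYP1A1, a target of the aryl hydrocarbon receptor, was named after its value was seen. At an unadjusted p under 0.05, 86 genes were higher and 51 lower. On the log2(CPM + 1) scale, the 95% CI for IAA minus DMSO was -0.60 to 1.11 for SPRY1, -0.32 to 1.02 for SPRY2, -0.58 to 0.99 for SPRY4 and -0.73 to 1.39 for ETV4. It was -0.56 to 0.78 for SPRED1, -0.54 to 0.79 for SPRED2, -0.64 to 0.45 for ETV5 and -0.64 to 0.51 for PHLDA1. Only 1 of the promoter windows of SPRED2 holds the AP-1 letters shown above. The intervals of SPRY1, SPRY2 and ETV4 include a difference of 1 on this scale, which understates the change of low genes. Beyond the 7 members compared above, SPRY1 entered this fit only through the 10 reads of the IAA library. These brought it to the minimum of 10 reads in 3 libraries, so no conclusion is drawn from its interval.

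In the rate, with each library centred on its median, 2 of the 8 members were at least 1 log2 unit away and outside the DMSO range, where 20.5% of 11375 genes were. SPRY1 was 2.84 above the DMSO mean on 10 reads against 7, 4 and 4, and without the DMSO library at 0% it was 0.42 above. ETV4, at 0% in the IAA library, was 1.70 below. That size is set by the pseudocount, since it was -3.55 with a pseudocount of 0.0001 and -0.69 with 0.002. Outside the range lay 3 of the 8 members and 49.2% of all genes. The third was PHLDA1, whose 1.04% in the IAA library was under the 1.19 to 1.35% of the DMSO libraries, a centred log2 difference of -0.45. SPRY2 at 0.07, SPRED1 at 0.10, SPRED2 at 0.15, ETV5 at 0.03 and SPRY4 at -0.31 were within the DMSO range. Each DMSO library set against the others in the same way had 1 or 2 members past the fold and 2 to 7 outside the range.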

How the data were processed

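The study deposited 1 table for 3 groups of MCF10A libraries (QuantSeq 3′ SLAM-Seq). The authors processed the reads with a SLAM-Seq pipeline of nf-core, and the submitters' processing notes name the build hg19. The deposited conversion rate is a fraction without background subtraction. The deposited CPM is a signal in reads scaled to library size, and 100% of its non-zero values were whole reads within 0.01. RefSeq identifiers were matched to symbols through a GRCh38.p14 table used for names (97.7% of rows). All per-sample columns were used (0 left out). Rows of a gene with equal length and values counted once. For a gene with several intervals (20.2% of genes), reads were summed and rates averaged with the reads as weights. The weighted mean had been listed as an alternative and became the main value, because an empty 29-base interval of PHLDA1 would otherwise pull its rate down.

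Levels were compared with limma (3.58.1, R 4.3.3) on log2(CPM + 1) with TMM library sizes for genes with at least 10 reads in at least 3 of 6 libraries, and rates with limma on log2(rate + 0.0005) for genes above 0 in at least 3 of 6. The threshold was a Benjamini-Hochberg adjusted p of 0.05 over all genes. edgeR (4.0.16) and DESeq2 (1.42.0) on recovered reads were alternatives. Fits were tested on simulated data, where the rate test made false calls mainly among genes with few reads. Deviations from group means correlated between libraries of the same number at 0.38, 0.30 and 0.34 in level, so the numbers pair the libraries there, and at 0.0058, -0.0047 and -0.027 in rate, where they do not.

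The members and lists were chosen with earlier results of these data known. The rule for naming took all members, their paralogs, a fixed set of other ERK genes (some of which are not reported here) and the 3 genes most like the most variable member. FOS, ERBB2, MAP2K2 and CYP1A1 were named in addition, after their values were seen. Figures used matplotlib.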

Additional observations from a re-analysis of the deposited data

How the results depend on the processing

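Over the single members, 307 of the alternative values kept their direction and their side of the threshold or moved by less than the spread of the DMSO libraries, while 5 gained a call (SPRY1, ETV4 and ETV5 in rate), 6 lost one (SPRY2 in level), 8 changed direction and 6 without a test moved further. Counts of genes called in level moved from 189 to 418 with DESeq2 and to between 64 and 270 on leaving out 1 library. Members called in level moved from 1 to 0 with the replicate block, which called 195 genes in all, and lay between 0 and 1 on leaving out 1 library. SPRY2 then had an adjusted p of 0.055 with the block, and the block changed no other member's call in level or rate. For DMSO with 4sU against no 4sU, the direction turned in level in SPRED1 and ETV5, which were not called, and in no member in rate. For IAA against DMSO, small differences also changed sign on leaving out a library or without TMM, in level in SPRED2 and PHLDA1 and in rate in SPRY2, SPRED1, SPRED2 and ETV5. SPRED1 came to -0.0098 with DESeq2, -0.0076 with at least 50 reads and between -0.21 (without no 4sU replicate 1) and 0.17 on leaving out 1 library. ETV5 came to -0.014 with no filter, -0.027 with at least 50 reads and between -0.071 and 0.11 on leaving out 1 library. For IAA against DMSO in level, genes past the fold went from 26 to 136 with a pseudocount of 0.25, to 16 with the interval with most reads and to between 18 and 111 on leaving out 1 DMSO library. In rate they went from 2337 to 1377 with a pseudocount of 0.002 and to 709 with at least 200 reads, and members past the fold from 2 to 1 with a pseudocount of 0.002, 0 with at least 200 reads, 1 for the rate multiplied by CPM and between 1 and 2 on leaving out 1 DMSO library. With pooled spread, limma called 1 to 2 genes on leaving out 1 library. The causes were not tested. The plain mean of intervals, and leaving out libraries under pooled spread, were added after seeing the data. Depth limits SPRY1 (4 to 48 reads) and SPRY2 (31 to 137 reads) most, and the single IAA library limits every comparison with it.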
